A study of Mus musculus with 8 samples.

Results

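Chylomicron apolipoproteins and lipid carriers were followed in single epithelial cells of the mouse small intestine. The 9 genes were Apoa1, Apoa4, Apoc3, Apoc2, Apob, Mttp, Fabp1, Fabp2 and Rbp2, taken by symbol from the 27998 gene identifiers of the matrices. They occupied 10 rows, because Apoc2 stood on a pair of identifiers, one of which was at 0 UMIs in both matrices and was named Gm44805 in the annotation used here. Cells bearing EpCAM, an epithelial surface protein, and excluding the dye DAPI were sorted from small intestinal crypts of adult female mice on a C57BL/6 background. The knockout mice (KO) were homozygous for a germline deletion, made by CRISPR/Cas9, of ieCtnnb1, an intestinal enhancer upstream of Ctnnb1, which encodes beta-catenin. The controls (WT) carried at the H11 locus a LacZ and iCre reporter under the Shh promoter and the core of that enhancer, per the study, so they were not plain wild-type animals. Animals of a genotype had been pooled. The labels list 4 samples per group, yet each group was deposited as 1 matrix with no map from cells to samples, and the legends of the study differ in the number of animals. Each genotype was therefore 1 sample, no test between genotypes was possible, and all intervals (95%) cover counting error only.

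Enterocytes re-esterify absorbed fatty acids in the endoplasmic reticulum and pack the triglyceride into chylomicrons, which leave for the lymph. Apolipoprotein B is the scaffold of each particle, and the microsomal triglyceride transfer protein encoded by Mttp loads lipid onto it. Apoa1, Apoa4, Apoc2 and Apoc3 encode exchangeable apolipoproteins at the particle surface, Fabp1 and Fabp2 encode cytosolic fatty acid carriers, and Rbp2 encodes the retinol carrier of the absorptive cell. These genes are known for use by villus enterocytes, with Apoa4, Fabp1 and Rbp2 known as genes of the proximal intestine.

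After filtering there were 13095 WT and 8658 KO cells with medians of 6675 and 8691.5 UMIs (unique molecular identifiers, each standing for a captured transcript). Cells were clustered without the 9 genes, and clusters were named by markers as crypt base columnar (CBC-like), transit-amplifying (TAC-like), immature and mature enterocyte (imEC-like and mEC-like), Paneth (PC-like), goblet (GC-like), enteroendocrine (EEC-like) and tuft (TC-like). Ctnnb1 was at 227 UMIs per 1000000 (CPM) in WT and 127 CPM in KO mEC-like cells. The 23 measured markers of non-epithelial cells summed to 5.35 CPM in WT and 14.4 CPM in KO mEC-like cells, of which 14 and 10 were at 0 UMIs. The matrices shared 29 barcodes among the kept cells. Of the mEC-like cells, 1603 in WT and 1945 in KO, the largest cluster in WT held 1064 cells with a median of 5605 UMIs and was led, after the members, by Reg1, Gsta1 and Sis. The largest in KO held 972 cells with a median of only 861.5 UMIs and was led by Slc34a2, Myo15b and Plb1. The clusters thus weighed differently in the 2 genotypes, and values within narrower groups are given beside the class values.

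All 9 genes were at their highest in mEC-like cells among the 8 named classes, in WT and in KO. Of all genes with at least 50 UMIs, 16.2% in WT and 17.6% in KO were highest in that class. Together the 9 genes took 4.16% of the UMIs of WT mEC-like cells and 6.98% of those of KO mEC-like cells. In imEC-like cells they took 0.396% and 0.425%, and in CBC-like cells 0.0765% and 0.130%. The steepest part of the gradient therefore lay between the immature and the mature enterocytes.

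**Figure D1:**
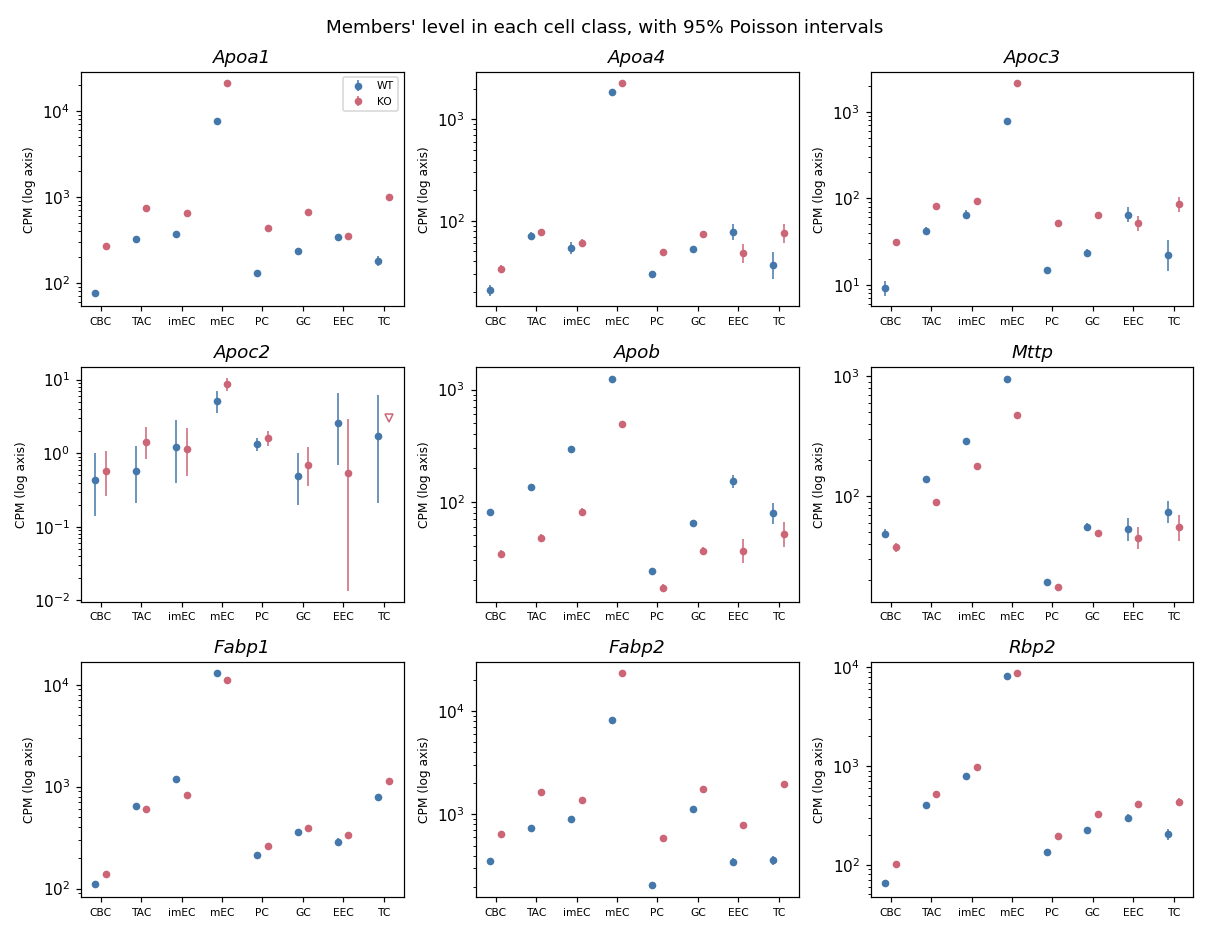
Level of each gene in UMIs per 1000000 UMIs (CPM, log axis) in the 8 named classes, for WT and KO, as points with 95% Poisson intervals; an open triangle is the upper limit of a class with 0 UMIs. Each gene has its highest point in mEC-like cells in both genotypes.

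The order of the remaining classes differed between genes. Apoa1 followed the order mEC, imEC, EEC, TAC, GC, TC, PC and CBC in WT, from 7583 to 76.0 CPM, where the intervals of imEC and EEC, and of EEC and TAC, overlapped. In KO it stood at 21145 CPM in mEC-like cells and 1001 CPM in TC-like cells, and at 269 CPM in CBC-like cells, and the intervals of GC and imEC overlapped. Fabp1 was next highest in imEC-like cells in WT and in TC-like cells in KO, and 0 of its 7 pairs of neighbouring classes overlapped in either genotype. Fabp2 was next highest in GC-like cells in WT (1122 CPM) and in TC-like cells in KO (1970 CPM). Apob ran from 1250 CPM in mEC-like to 24.2 CPM in PC-like cells in WT, with TC-like cells indistinguishable from CBC-like and GC-like cells. For the sparse Apoc2, 7 of 7 neighbouring pairs overlapped in WT and 6 of 7 in KO.

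The members did not share one course from immature to mature cells. Apob stood at 294 CPM (277 to 311) in WT imEC-like cells and 1250 CPM in WT mEC-like cells, so that the immature level was 23.5% of the mature one. Mttp was at 290 and 948 CPM, which is 30.6%. The other genes of the set with 50 or more UMIs started lower: the immature level was 4.90% of the mature one for Apoa1, 2.91% for Apoa4, 8.25% for Apoc3, 9.09% for Fabp1, 11.2% for Fabp2 and 9.82% for Rbp2. In KO the immature share of Mttp was 37.4%, the highest of the set, and that of Apob 16.5%. Apoa4 was again the lowest at 2.68%. Among these genes the scaffold and its lipid loader thus stood nearest to their mature level in immature cells, and Apoa1, Apoa4 and Apoc3 furthest from it. No background was taken off these levels. Apoa4 in imEC-like cells, at 54.1 CPM in WT and 60.9 CPM in KO, was no higher than in the highest PC-like cluster (54.5 and 64.1 CPM).

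Background was read from cells that are not known to use these genes. In PC-like cells Apoa1 was at 129 CPM in WT and 440 CPM in KO, or 1.71% and 2.08% of the mEC-like level. For all members but Apoc2 the PC-like level lay between 1.61% and 2.53% of the mEC-like level in WT, and between 2.08% and 3.65% in KO. The 3 PC-like clusters differed severalfold around these pooled values. Apoa1 ran from 69.5 to 237 CPM over them in WT and from 272 to 643 CPM in KO, and Fabp2 from 85.6 to 425 CPM and from 268 to 999 CPM. A finer PC-like group of 138 WT and 39 KO cells had Gsta1 and Fabp1 among its leading genes. The members took 0.745% and 1.08% of its UMIs. Other PC-like groups of that clustering had 0.0338% to 0.0908% in WT and 0.0833% to 0.200% in KO. That group held 19354 and 15718 UMIs of the members, beside 57295 and 78817 in the PC-like class. Its part in the pooled level was not tested. The mix of the members in PC-like cells resembled that in mEC-like cells of the same genotype, with the largest departure in WT for Fabp2, at 26.5% against 19.5%. In WT, Apoa1 made up 16.7% of the members' UMIs in PC-like cells and 18.2% in mEC-like cells, and Fabp1 27.7% and 31.2%. In KO, Apoa1 made up 27.0% and 30.3%, and Fabp1 16.1% and 16.0%. Values at this level are read here as background and not as use of the gene by the cell. The ratio of KO to WT in PC-like cells carries it too, and it is not read as a change in Paneth cells.

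In CPM, Fabp2 stood apart from that background in goblet cells, though not only there. In goblet cells it was also above the highest PC-like cluster. Its GC-like level of 1122 CPM in WT and 1748 CPM in KO was 13.8% and 7.48% of the mEC-like level, whereas Fabp1 was at 2.75% and 3.51%. It made up 52.6% of the members' UMIs in WT GC-like cells and 52.1% in KO, against 19.5% and 33.5% in mature enterocytes. A finer GC-like group of 268 WT and 134 KO cells had Reg1 among its leading genes. The members took 1.27% and 1.56% of its UMIs. Other GC-like groups of that clustering had 0.119% to 0.211% in WT and 0.234% to 0.477% in KO. That group held 28676 and 43248 UMIs of the members, beside 30460 and 58805 in the GC-like class. Its part in the pooled goblet level was not tested. Of the members' UMIs in CBC-like cells, 45.9% and 50.3% were of Fabp2. The Fabp2 level there, 352 CPM in WT and 653 CPM in KO, was above the pooled PC-like level (205 and 596 CPM). It still lay within the range of the PC-like clusters. TAC-like cells were above that range, with Fabp2 at 733 CPM in WT and 1653 CPM in KO, or 9.03% and 7.08% of the mEC-like level. Counted per cell, the mean of Fabp2 was 7.46 UMIs in WT and 30.8 in KO GC-like cells. It was 5.16 and 24.1 in TAC-like, 3.20 and 9.87 in CBC-like, and 4.69 and 25.8 in the deeper PC-like cells. After thinning each cell to 1000 UMIs, which kept 2009 of 2147 WT and 970 of 993 KO GC-like cells and 3239 of 3242 and 1109 of 1116 PC-like cells, 61.8% of WT and 71.1% of KO GC-like cells had a Fabp2 UMI, against 15.9% and 32.8% of PC-like cells. The unthinned shares were 89.6% and 98.0% in GC-like cells with median depths of 5987 and 17861 UMIs, and 86.7% and 98.4% in PC-like cells with medians of 23073.5 and 45029.5 UMIs. For CBC-like cells, all of which were kept, the thinned shares were 25.6% and 43.5% and the unthinned 87.3% and 97.5%. For TAC-like cells, with 1420 and 788 kept, they were 41.8% and 59.6%, and 81.6% and 94.1%.

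Tuft cells carried an excess of Fabp1 over that background, though not of Fabp1 alone. In TC-like cells Fabp1 was at 797 CPM (746 to 850) in WT and 1128 CPM (1069 to 1189) in KO. It made up 45.4% of the members' UMIs there in WT, against 31.2% in mEC-like and 27.7% in PC-like cells, and 23.5% in KO, against 16.0% and 16.1%. After thinning, which kept 170 and 90 TC-like cells, 44.1% of WT and 38.9% of KO TC-like cells had a Fabp1 UMI, against 13.8% and 16.0% of PC-like cells. Unthinned, the shares were 74.0% and 80.2% in TC-like cells, with median depths of 4270 and 11501 UMIs, and 82.4% and 95.3% in PC-like cells. The median TC-like level over the 9 genes was 4.43% of the mEC-like level in WT and 4.93% in KO, and over the alternatives tried it ran from 3.48% to 6.78% and from 3.02% to 12.4%. KO TC-like cells also held Fabp2 at 1970 CPM and Apoa1 at 1001 CPM, with the highest PC-like clusters at 999 and 643 CPM. Fabp2 took 41.1% of the members' UMIs in these KO cells, and 42.2% of them had a Fabp2 UMI after thinning. WT TC-like cells had Fabp2 at 360 CPM and Apoa1 at 181 CPM, within the range of the PC-like clusters. Apob and Mttp were above the highest PC-like cluster in both genotypes, but so they were in CBC-like, TAC-like, GC-like and EEC-like cells. Fabp1 too was above it in TAC-like cells, at 642 CPM in WT and 602 CPM in KO, against 463 and 441 CPM. TC-like cells were few, 177 in WT and 91 in KO.

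**Figure D2:**
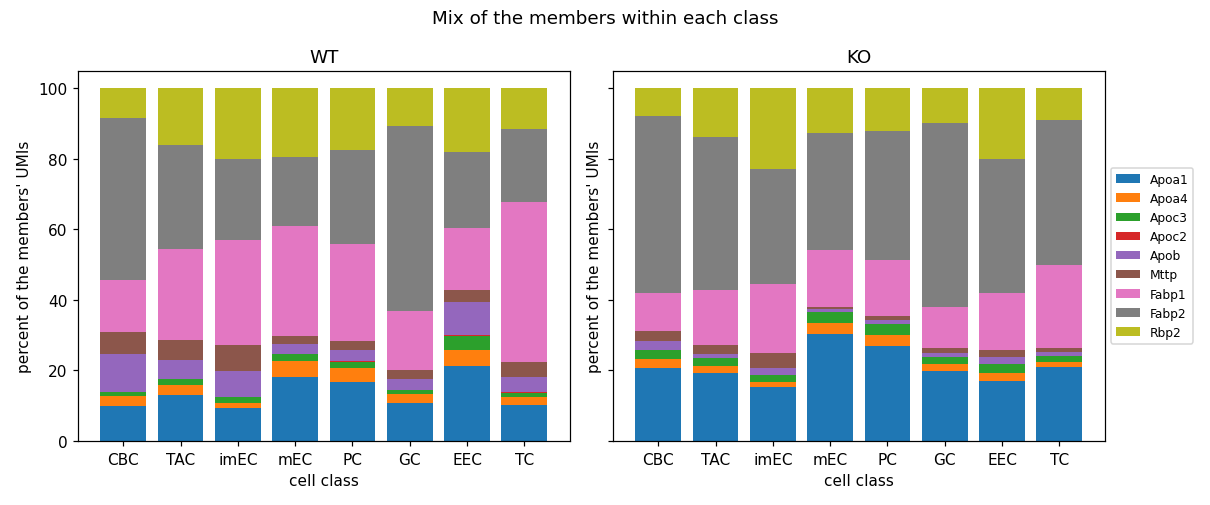
Share of each gene in the summed UMIs of the 9 genes (percent, stacked bars) in each named class, for WT on the left and KO on the right. Fabp2 takes the largest share in every named class in KO, and in WT in goblet, crypt base, transit-amplifying and enteroendocrine cells. Fabp1 takes 45.4% in WT tuft cells.

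Comparing the genotypes addressed whether loss of the enhancer went with another level of lipid transport genes in enterocytes. In mEC-like cells the 8 well-covered genes fell into 3 groups. Apoa1, Apoc3 and Fabp2 were 2.79, 2.76 and 2.88 times as high in KO as in WT, Apoa4, Rbp2 and Fabp1 were 1.22, 1.08 and 0.861 times, and Apob and Mttp 0.391 and 0.503 times as high. Apoc2, at 1.70 times, rests on few UMIs. Apoa1, Apoc3 and Fabp2 were the 3 members at least 2-fold higher, out of 9 with at least 50 UMIs. Over all 8838 genes tested, 2.46% were as much higher. Apob was the member at least 2-fold lower, as were 18.6% of all genes, so that lower levels were common in KO. The median log2 ratio of the 9 genes was 0.29 and that of all genes tested was -0.38.

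Apoa1, which encodes the main protein of high-density lipoprotein and a surface protein of chylomicrons, was at 7583 CPM (7518 to 7648) in WT and 21145 CPM (21057 to 21234) in KO mEC-like cells. The log2 ratio was 1.48 (1.47 to 1.49). Apoc3, whose protein slows the removal of triglyceride-rich particles, was at 779 CPM in WT and 2147 CPM in KO, which gives 1.46 (1.42 to 1.51) on the log2 scale. Fabp2, the intestinal fatty acid carrier, was at 8117 CPM in WT and 23350 CPM in KO, which gives 1.52 (1.51 to 1.54). For each of the 3 genes the KO interval lay wholly above the WT interval.

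Apoa4, which lies in the same gene cluster as Apoa1 and Apoc3 and encodes the apolipoprotein that enterocytes release with fat, was at 1861 CPM in WT and 2276 CPM in KO, with log2 ratio 0.29 (0.26 to 0.32). Rbp2 was at 8113 and 8734 CPM (log2 ratio 0.11, 0.09 to 0.12). Fabp1, the carrier also used by liver, was at 12970 and 11171 CPM (log2 ratio -0.22, -0.23 to -0.20). Apoc2, the activator of lipoprotein lipase, was near the floor with 35 UMIs (5.06 CPM, 3.53 to 7.04) in WT and 89 UMIs (8.63 CPM, 6.93 to 10.6) in KO. Its Gm44805 identifier overlaps it on the same strand, so how reads were split between them cannot be told.

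Apob was at 1250 CPM (1224 to 1277) in WT and 489 CPM (475 to 502) in KO mEC-like cells (log2 ratio -1.35, -1.41 to -1.30). Mttp was at 948 and 477 CPM (log2 ratio -0.99, -1.04 to -0.94). Transcript length moved with the ratio across all genes of this class. Genes with 183 to 2730 bases of exon sequence had a median log2 ratio of 0.11, and those above 6862 bases a median of -0.88. Apob has 13934 bases and lies in the longest quartile, Mttp has 6206 bases and lies in the quartile with a median of -0.57, and the other 7 members lie in the shortest quartile. Apob and Mttp were below, and Apoa1, Apoc3 and Fabp2 above, the median of genes of like length. The part of transcript length in these ratios was not tested.

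**Figure D3:**
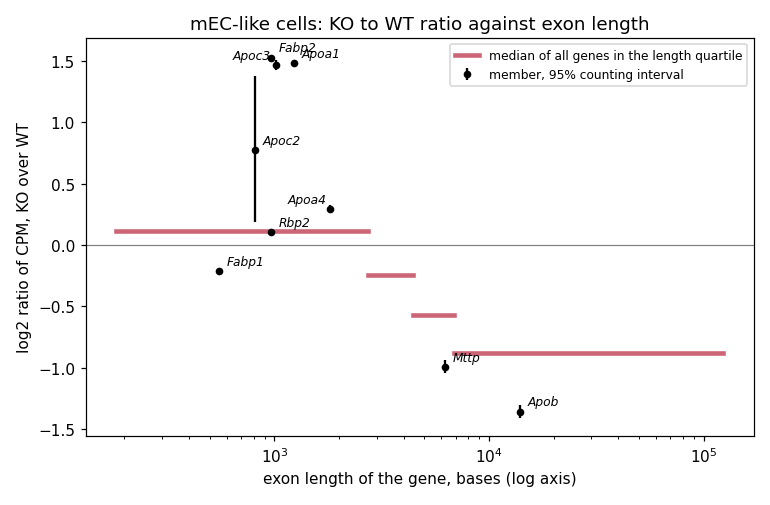
Ratio of KO to WT CPM (log2) in mEC-like cells against the summed exon length of the gene in bases (log axis). Points are the 9 genes with 95% counting intervals and bars are medians of all genes tested in each quartile of length; the bars descend from 0.11 to -0.88, and Apob, at 13934 bases, lies at -1.35.

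The 3 apolipoprotein genes of the chromosome 9 cluster lie within 14.9 kb on mouse build GRCm38, with Apoa1 at chr9:46228580-46230466 on the plus strand, Apoc3 at chr9:46232933-46235636 on the minus strand and Apoa4 at chr9:46240696-46243459 on the plus strand. Rbp2 lies farther along the same chromosome at chr9:98486115-98509781. Fabp2 is at chr3:122895072-122899506, Mttp at chr3:138089854-138144968, Fabp1 at chr6:71199827-71205023, Apoc2 at chr7:19671579-19677941 and Apob at chr12:7977648-8016835. RefSeq promoters on GRCm38.p6, from 250 bases before to 50 after the start, were found for 8 of the 9 members, without Apoc3. Those of Apoa1 and Fabp2, both at least 2-fold higher in KO mEC-like cells, are shown beside those of the neighbour Apoa4 and of Rbp2, whose ratios were under 2-fold. Capitals mark motif matches on either strand. CAAAGTCCA and CAAAGTTCA are motifs of HNF4, a nuclear receptor known to drive enterocyte genes. AGATAA is the motif of GATA factors. GTTAAT is a half-site of HNF1. TATAAA is the TATA box.
Apoa1, chr9:46228380-46228679, plus strand: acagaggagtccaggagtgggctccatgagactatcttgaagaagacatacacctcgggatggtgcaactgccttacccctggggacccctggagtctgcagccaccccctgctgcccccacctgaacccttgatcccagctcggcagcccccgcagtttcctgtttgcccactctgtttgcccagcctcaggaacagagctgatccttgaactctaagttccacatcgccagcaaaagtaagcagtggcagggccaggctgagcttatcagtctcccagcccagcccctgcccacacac
Fabp2, chr3:122894822-122895121, plus strand: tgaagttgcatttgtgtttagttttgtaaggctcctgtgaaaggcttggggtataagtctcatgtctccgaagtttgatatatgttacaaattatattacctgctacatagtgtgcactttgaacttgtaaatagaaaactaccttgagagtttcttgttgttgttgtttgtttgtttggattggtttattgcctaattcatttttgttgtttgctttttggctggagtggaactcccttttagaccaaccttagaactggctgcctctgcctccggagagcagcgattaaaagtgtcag
Apoa4, chr9:46240594-46240893, plus strand: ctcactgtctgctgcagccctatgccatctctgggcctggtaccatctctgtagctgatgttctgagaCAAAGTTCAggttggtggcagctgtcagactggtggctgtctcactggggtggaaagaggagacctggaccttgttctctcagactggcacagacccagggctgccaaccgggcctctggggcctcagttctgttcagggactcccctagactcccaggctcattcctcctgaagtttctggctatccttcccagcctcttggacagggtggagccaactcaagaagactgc
Rbp2, chr9:98490287-98490586, plus strand: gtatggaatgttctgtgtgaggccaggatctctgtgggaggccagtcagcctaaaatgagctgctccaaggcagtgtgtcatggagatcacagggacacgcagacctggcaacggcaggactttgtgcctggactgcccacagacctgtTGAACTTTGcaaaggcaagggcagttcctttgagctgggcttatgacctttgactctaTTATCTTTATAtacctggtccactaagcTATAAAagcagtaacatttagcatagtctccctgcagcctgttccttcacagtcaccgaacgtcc
The HNF4 variant CAAAGTTCA was found in the Apoa4 and Rbp2 windows, 2 of 8, as in 0.390% of 32851 promoters, and CAAAGTCCA in none of the 8 (0.475% of all). Rbp2 also held AGATAA (11.2% of all) and a pair of TATAAA matches (13.6% of all), one of which overlaps AGATAA by 1 base. Fabp1 and Apoc2 held GTTAAT (7.10% of all), and Fabp1 and Apob each held TATAAA. None of these motifs was in the windows of Apoa1, Fabp2 and Mttp, which says nothing of the factors.

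In imEC-like cells, 495 in WT and 456 in KO, the order of the ratios was much the same but the higher levels were less marked. Of the 8 members with 50 or more UMIs there, 0 were at least 2-fold higher in KO, as were 0.896% of all genes, and Apob was at least 2-fold lower, as were 17.5%. Apoa1 was at 372 CPM in WT and 646 CPM in KO (log2 ratio 0.80, 0.71 to 0.88). Fabp2 was at 907 and 1392 CPM (log2 ratio 0.62, 0.56 to 0.67), and Apoc3 at 64.3 and 92.6 CPM (log2 ratio 0.53, 0.32 to 0.74). Apob was at 294 and 80.8 CPM (log2 ratio -1.86, -2.01 to -1.72), and Mttp at 290 and 179 CPM (log2 ratio -0.70, -0.82 to -0.59). Fabp1 was at 1179 and 829 CPM (log2 ratio -0.51, -0.56 to -0.45). Apoa4, at 54.1 and 60.9 CPM, had an interval that includes 0 (-0.07 to 0.41), as did Apoc2 with 5 and 8 UMIs. The median log2 ratio of the 9 genes was 0.17, against -0.33 over all genes. In KO, Apoa1, Apoa4, Fabp1 and Fabp2 were higher in TC-like than in imEC-like cells. Against pooled PC-like cells, KO imEC-like cells were higher for Fabp1 (829 and 263 CPM), Fabp2 (1392 and 596 CPM) and Apoa1 (646 and 440 CPM). The highest KO PC-like cluster had Fabp1 at 441 CPM, Fabp2 at 999 CPM and Apoa1 at 643 CPM. For Apoa1 that lay within the imEC-like interval (627 to 665), so it could not be told from the highest background. With the PC-like level subtracted, an alternative chosen after seeing the data, the log2 ratios of Apoa1, Apoa4 and Apoc3 were -0.24, -1.04 and -0.26, that of Fabp2 was 0.18 and that of Apob -2.08. With the TC-like level subtracted, Apoc3 stood at -2.45, Rbp2 at -0.14 and Apob at -2.85. With the CBC-like level subtracted, also chosen after seeing the data, Apoa1 stood at 0.35, Apoc3 at 0.16, Apoa4 at -0.30, Fabp2 at 0.41 and Apob at -2.19. The direction of Apoa1 and Apoc3 in immature cells thus depended on which class was taken as background, whereas Apob and Mttp were lower in KO under each of the 3 subtractions.

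**Figure D4:**
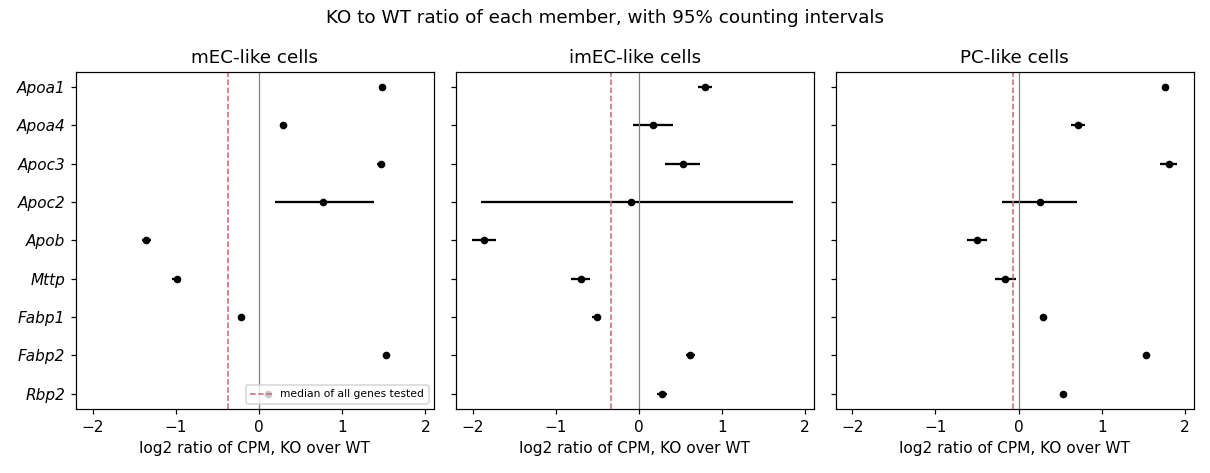
Ratio of KO to WT CPM (log2) of each gene in mEC-like, imEC-like and PC-like cells, with 95% counting intervals and a dashed line at the median of all genes tested. Apoa1, Apoc3 and Fabp2 lie right of 1 in mEC-like and PC-like cells, and Apob lies left of 0 in all 3 classes.

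In the remaining classes the members were far under their mature level, and Apoa1 and Fabp2 were again among the higher ones in KO. In PC-like cells Apoa1, Apoc3 and Fabp2 were at least 2-fold higher in KO (3 of 9 members, 2.95% of all genes) and 0 were as much lower (5.84%). In GC-like cells Apoa1 and Apoc3 were higher (2 of 8, 1.81%) and 0 were lower (15.4%). In CBC-like cells Apoa1 and Apoc3 were higher (2 of 8, 0.524%) and Apob was lower (15.6%). The CBC-like Apoa1 and Apoc3 levels lay within the range of the PC-like clusters in WT (76.0 and 9.08 CPM). In KO they were below its lowest (269 and 31.1 against 272 and 33.3 CPM). The GC-like levels lay within that range too, except Apoa1 in KO (661 against 643 CPM). No background was taken off, and these Apoa1 and Apoc3 ratios are not read as changes in stem or goblet cells. In TAC-like cells Apoa1 and Fabp2 were higher (2 of 8, 0.549%) and Apob was lower (18.2%). In TC-like cells Apoa1, Apoa4, Apoc3, Fabp2 and Rbp2 were higher (5 of 8, 4.46%) and 0 were lower (9.61%). EEC-like cells differed in that Apoa1 was at 344 and 352 CPM, with Fabp2 alone higher (1 of 8, 9.16%) and Apob alone lower (10.6%), at 153 CPM in WT and 36.6 CPM in KO.

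A finer clustering, again drawn without the 9 genes, gave 8 enterocyte groups with at least 20 cells of each genotype, named here by their leading genes with the members left aside. Apoa1, Apoc3 and Fabp2 were higher in KO in 8 of 8 groups, with log2 ratios from 0.77 to 2.86, from 0.53 to 4.51 and from 0.56 to 3.61, and each interval lay above 0. Apob was lower in 8 of 8 groups, from -1.92 to -0.43, each interval below 0. Mttp was lower in 7 of 8. Apoa4 and Rbp2 were higher in 8 of 8, each with 7 intervals above 0 and with log2 ratios up to 3.32 and 3.58. Fabp1 was higher in 4 groups and lower in 4. No background was taken off these levels, and in the immature groups the direction of Apoa1 and Apoc3 depends on it, as given above. The lower Apob did not hold in every cluster of the coarser clustering. In the shallow Slc34a2-led cluster, which held 972 of the 1945 KO mEC-like cells, Apob was at 725 CPM in WT and 757 CPM in KO (log2 ratio 0.06, -0.12 to 0.25) and Mttp at 230 and 216 CPM (-0.09, -0.43 to 0.24). Apoa4 was at 260 and 4802 CPM in that cluster. The shallow groups of the finer clustering, led by Myo15b and by 2010109I03Rik, had Apob at 589 and 438 CPM and at 2599 and 1323 CPM. Apob was thus lower in KO within each. They held 434 and 37 cells in WT and 734 and 252 in KO, so the Apob-rich group weighed more in KO. The part of that weight in the ratios of the coarser cluster was not tested. The groups share their 2 libraries and are no replicates.

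The highest use of the whole set was in a group with 169 WT and 241 KO cells whose leading genes were Apoc3, Apoa4 and Apoa1 themselves, followed by Sepp1, Lct (lactase), Fabp2 and Dnase1. There the 9 genes took 7.62% of UMIs in WT and 13.1% in KO. Fabp2 was at 19881 CPM in WT and 50157 CPM in KO, Apoa1 at 16174 and 36730 CPM, and Apoc3 at 2481 and 6446 CPM. Apoa4 was at 4720 and 5059 CPM, and Fabp1 at 19553 and 18264 CPM. Apob was at 1933 and 751 CPM. The 3-way division of the class values was thus present within this one group.

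The group led by Reg1, Gsta1 and Papss2, with Fabp1 and Rbp2 also among its first genes and with 607 WT and 271 KO cells, held the highest Rbp2 level, 11500 CPM in WT and 17351 CPM in KO. Fabp1 was at 17810 and 22475 CPM there, which in KO was its highest level. Apoa1 was at 7549 and 16662 CPM, and Apob at 1313 and 410 CPM. In the group led by Sis, Reg3b and Spink1 the carriers Fabp1 and Rbp2 were lower, at 5235 and 3150 CPM in WT and 4678 and 3634 CPM in KO, and Fabp2 was at 4462 and 18462 CPM.

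A group led by Fabp6, the ileal bile acid carrier, Tmigd1 and Saa1 held 73 WT and 204 KO cells and had a different mix. Fabp1 was at 77.4 and 120 CPM, Apoa4 at 26.6 and 93.4 CPM and Rbp2 at 126 and 744 CPM, all far under their levels in the Sepp1-led group. Apoa1 was at 2545 and 16998 CPM and Fabp2 at 2489 and 19812 CPM. Apob was at 706 and 399 CPM. Cells of this group therefore held Apoa1, Fabp2 and Apob with very little Fabp1 and Apoa4. The summed level of 13 distal small intestine genes was 64114 CPM in WT and 93714 CPM in KO in this group, against 1024 and 1422 CPM in the Reg1-led group. An immature pair showed the same contrast. Fabp1 was at 1622 CPM in WT and 1092 CPM in KO in the group led by Car4, Arg2 and Casp6, and at 102 and 128 CPM in the group led by Mgat4c, Gsdmc4 and Fabp6.

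A last group, led by 2010109I03Rik, Clca4a and Ada, had shallow cells, 37 in WT and 252 in KO with medians of 766 and 935 UMIs. Apoa4 reached 13421 CPM (13058 to 13791) in KO, its highest level of any group, with Apoa1 at 39602 CPM and Apoc3 at 5695 CPM. Fabp1 was at only 1318 CPM and Rbp2 at 4493 CPM in the same cells. Apob too was at its highest here, at 2599 CPM in WT and 1323 CPM in KO. In WT the levels rest on few UMIs, with 43 for Apoa4 (1347 CPM, 975 to 1814) and 8 for Apoc3. The remaining group, led by Myo15b, Fabp6 and Slc34a2, was shallow too, with medians of 851 and 835 UMIs, and had Apoa1 at 3458 CPM in WT and 16351 CPM in KO.

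**Figure D5:**
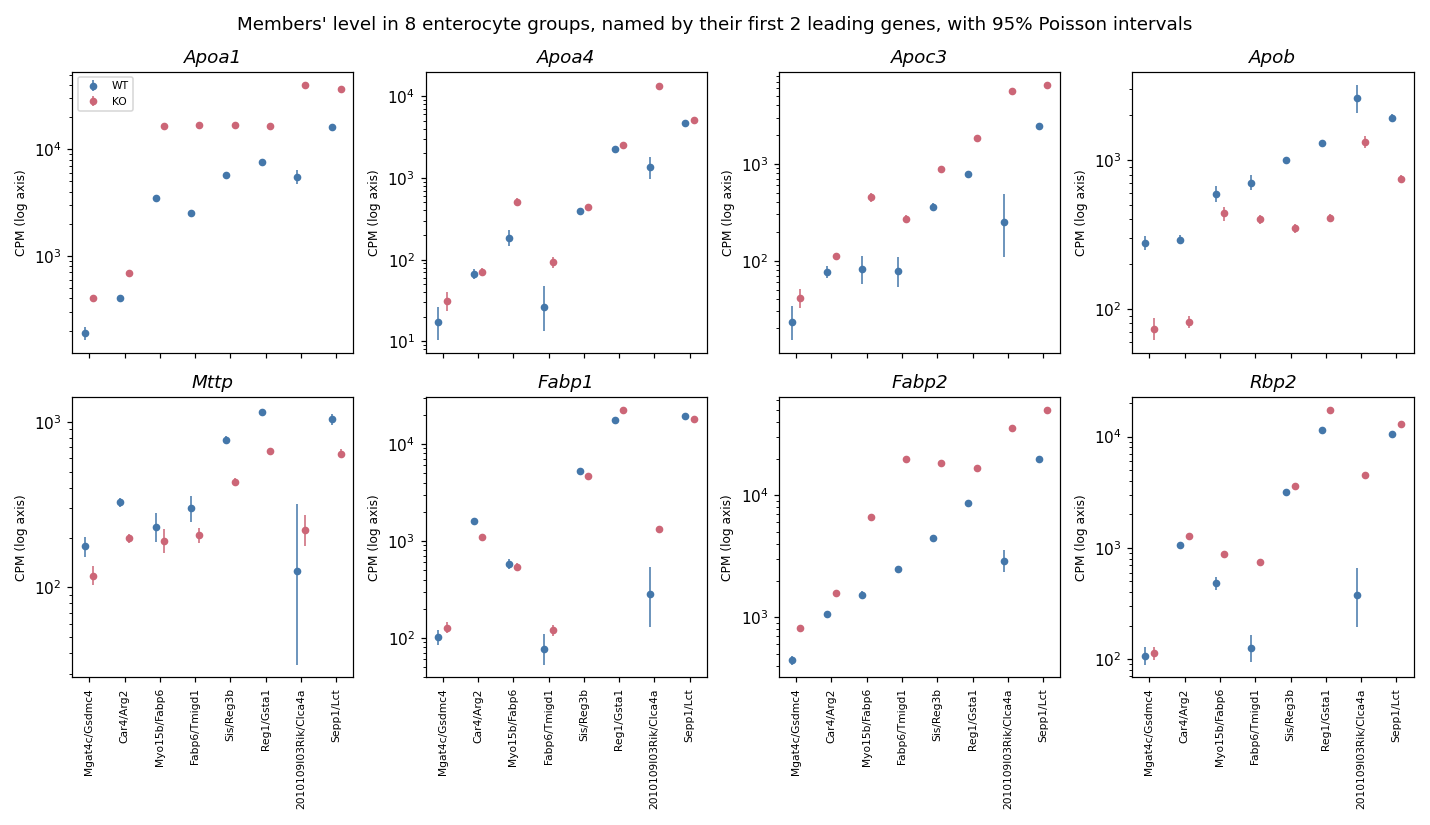
Level in CPM (log axis) of 8 of the genes (Apoc2, with few UMIs, left out) in 8 enterocyte groups of the finer clustering, for WT and KO, with 95% Poisson intervals; the first 2 groups are imEC-like and the others mEC-like, ordered by the members' share of UMIs in KO. Apoa1, Apoc3 and Fabp2 are higher in KO in each group, and Fabp1, Apoa4 and Rbp2 dip in the Fabp6/Tmigd1 group.

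Single cells of the largest deep mEC-like cluster were compared after thinning to 1000 UMIs, with 1064 WT and 770 KO cells. The median cell had 7 Apoa1 UMIs in WT and 21 in KO, with the middle 80% of cells from 2 to 17 and from 6 to 45. For Fabp2 the medians were 7 and 21, with ranges from 1 to 21 and from 3 to 58, so the spreads of the genotypes overlapped. Cells with an Apob UMI made up 71.7% in WT and 41.6% in KO, and those with a Mttp UMI 61.7% and 43.6%. Apoa4 had a UMI in 65.7% of WT and 59.6% of KO cells. Across cells, as a description, Spearman's coefficient of Fabp1 with Rbp2 was 0.78 in WT and 0.85 in KO, and that of Apoa1 with Fabp2 0.61 and 0.73. That of Fabp1 with Fabp2 was 0.61 in WT and 0.25 in KO. Cells of a cluster share a library, and counts of a cell share its depth of 1000 UMIs.

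The lists of related genes are read against all genes of mEC-like cells, of which 2.46% were at least 2-fold higher and 18.6% at least 2-fold lower in KO, with a median log2 ratio of -0.38. Of 19 measured genes of triglyceride and chylomicron assembly, 0 were at least 2-fold higher and 3 at least 2-fold lower in KO mEC-like cells, and the median log2 ratio was -0.21, so the counts lay near those shares. Mia2, which helps load large cargo at the endoplasmic reticulum, was at 48.6 and 11.1 CPM, A1cf, the cofactor of Apob messenger editing, at 62.8 and 28.4 CPM, and P4hb, the partner subunit of the Mttp protein, at 1153 and 556 CPM. The largest ratios were those of Prap1 (2881 and 5135 CPM), Agpat2 (313 and 522 CPM) and Tm6sf2 (267 and 434 CPM). Of the other apolipoproteins, Apoa2 was the 1 of 10 with enough UMIs, at 12.3 and 8.73 CPM. Of 3 further lipid-binding proteins, Fabp6 was at 5485 and 20203 CPM, Rbp7 at 17.1 and 29.5 CPM and Fabp5 at 3.04 and 3.88 CPM.

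Of 8 tested genes of retinoid handling 0 were at least 2-fold higher and 1 lower in KO, near the shares of all genes. All 8 were lower to some degree, with a median log2 ratio of -0.78, whereas the retinol carrier Rbp2 was not. Most of all genes tested were lower too, since their median was -0.38. Rdh10 was at 22.0 and 10.8 CPM, Aldh1a1, which makes retinoic acid, at 371 and 190 CPM and Lrat, which esterifies retinol, at 20.5 and 10.9 CPM. The smallest differences were those of Dhrs3, Isx and Rdh11, with log2 ratios of -0.30, -0.31 and -0.52. Of 9 genes of sterol uptake and efflux 0 were at least 2-fold higher and 2 lower, near the shares of all genes, with a median of -0.56. Slc27a2 was at 46.1 and 19.97 CPM, Abca1, which loads cholesterol onto apolipoprotein A-I, at 16.5 and 8.24 CPM and Cd36 at 26.5 and 13.8 CPM. Slc27a4, Npc1l1, the cholesterol importer, and Soat2 had log2 ratios of 0.17, 0.07 and -0.002. Of 22 transcription factors of enterocyte lipid genes 0 were at least 2-fold higher (2.46% of all genes) and 8 lower (18.6%), with a median of -0.74. Hnf4g was at 244 and 77.9 CPM, Ppara at 24.6 and 7.85 CPM and Nr5a2 at 24.7 and 8.43 CPM. Prdm1, Klf4 and Nr1h3 had the highest log2 ratios, 0.94, 0.71 and 0.17.

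Genes of intestinal region also differed between the matrices. Of 13 distal genes, 7 were at least 2-fold higher in KO mEC-like cells (2.46% of all genes) and 0 lower (18.6%), with a median log2 ratio of 1.25. Tmigd1 was at 66.1 and 605 CPM, Slc10a2, the ileal bile acid importer, at 29.9 and 167 CPM, and Plb1 at 22.6 and 85.5 CPM. Nr1h4, Muc3 and Fgf15 had the lowest ratios, -0.04, 0.28 and 0.74. Of 10 proximal genes 0 were at least 2-fold higher and 5 lower, against the same shares, with a median of -0.97. Slc40a1, the iron exporter, was at 43.4 and 8.92 CPM, Onecut2 at 147 and 31.0 CPM and S100g at 466 and 110 CPM. Leap2, Khk and Lct had the highest ratios, 0.41, -0.18 and -0.45. The part of the position of the cells along the intestine in the ratios of the members was not tested. Of the markers of non-epithelial cells, Ccl5 and Jchain had enough UMIs, both at least 2-fold higher with log2 ratios of 2.88 and 1.12, at 0.723 and 5.33 CPM and at 2.31 and 5.04 CPM.

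The genes whose level across 20 clusters was most like the summed level of the members, among 5854 genes, included Gda, Cyp3a13, H2-Q2, Pepd, 2010106E10Rik, Spink1, H2-Q1 and Slc5a1. Pearson's r of log2(CPM + 10), averaged over the matrices, ranged from 0.96 for Gda to 0.945 for Slc5a1, the sodium-glucose transporter. H2-Q2 and H2-Q1 are near-identical relatives whose reads may be shared. Among the members, r with the sum of the others was highest for Apoc3 in WT (0.95) and Fabp2 in KO (0.96). It was lowest for the sparse Apoc2 (0.58 and 0.49) and then for Fabp1 (0.80 and 0.68). The clusters of a matrix share a library, and enterocyte clusters carry most of the range.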

How the data were processed

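The deposited matrices held raw counts of UMIs per gene and cell barcode, 1 matrix per genotype. By the authors, Cell Ranger was run, version 4.0.0 per the file headers and 2.1.1 per the submitters' processing notes, which name build mm10, from 10x Genomics 3-prime libraries with default parameters and filtered barcodes. The gene annotation is not given in the sources used here. Totals were 134876816 UMIs from 15987 WT barcodes and 123794575 UMIs from 12763 KO barcodes. Cells with at least 200 genes and at most 30% mitochondrial UMIs were kept, which removed 2892 and 4105 barcodes. Doublets stayed in, since Scrublet called 1 of 13095 and 0 of 8658 cells and so did not work. The study itself identified doublets in both genotypes with DoubletFinder, so the classes described here may include some. Their part in the levels of the members outside enterocytes was not tested.

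Cells were integrated by canonical correlation in Seurat 5.3.0 (2000 variable genes, 30 dimensions). The 9 members, 5 lists of lipid genes and mitochondrial genes did not enter the variable genes. Cells joined to their 15 neighbours were clustered with leidenalg 0.10.2 at resolution 1, and at resolution 2 for the finer groups, of which those made up mostly of imEC-like or mEC-like cells are described. Names came from the fixed markers found in the 50 leading genes of a cluster. No name was given below 3 markers, where another class led the top 10, or where cells were shallow and that top 10 lacked markers. UMIs were summed per class and divided by all UMIs of the class (CPM). Intervals are exact Poisson for CPM and exact conditional binomial for ratios. Shares of cells are given for all cells and for cells thinned to 1000 UMIs, with shallower cells left out. A gene counted as tested in a class with at least 50 UMIs over both matrices. A level at 0 UMIs is shown by its upper Poisson limit. PCR copies are collapsed by UMIs, but intervals and limits still cover counting error only. Lengths and positions came from GENCODE M21, in which 27645 of 27998 identifiers (98.7%) were found.

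The members and the lists of genes were chosen with earlier results of these data known. Named genes were the 9 members, up to 3 genes with the highest and 3 with the lowest ratio of each list among those tested, and the 10 genes most like the members, of which 2 are not reported here. Leading genes of each cluster described were named too. The ratio step was tested on simulated data. Alternatives covered the filters, the denominator, the clustering, thinning and background.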

Additional observations from a re-analysis of the deposited data

Results flagged for a closer look

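The KO to WT ratio of Apoa4 pointed in opposite directions in different classes. The log2 ratio was 1.04 in TC-like cells (36.8 and 75.8 CPM) and -0.69 in EEC-like cells (77.3 and 47.8 CPM), with counting intervals on either side of 0. No background was taken off these levels. The PC-like clusters had Apoa4 at 16.9 to 54.5 CPM in WT and 36.1 to 64.1 CPM in KO. The WT level in TC-like cells and the KO level in EEC-like cells lay within those ranges. Fabp1 was flagged in the same way, with a log2 ratio of 0.50 in TC-like cells and -0.51 in imEC-like cells. In each pair the difference between the classes was not tested, because each genotype was 1 sample.

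The barcodes removed by the filters also held the members, at a summed 4449 CPM in 2892 WT barcodes and 10295 CPM in 4105 KO barcodes. They carried 3.43% and 6.39% of all UMIs of the members. Apoa1 was at 1494 CPM in the removed WT barcodes and 4072 CPM in the removed KO barcodes.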

How the results depend on the processing

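No paired analysis was possible because the matrices carry no replicate numbers, and leaving out a replicate was not possible either. Over 15 alternatives, of which 5 were chosen after seeing the data, Apoa1 and Fabp2 stayed at least 2-fold higher and Apob at least 2-fold lower in KO mEC-like cells, with log2 ratios from 1.34 to 1.80, from 1.19 to 1.82 and from -1.50 to -1.02. Apoc3 was at least 2-fold higher in 14 of 15 and stood at 0.62 with means of log-normalised values. Mttp ranged from -1.21 to -0.69. Fabp1 ranged from -1.46, with log-normalised values, to 0.08, Apoa4 from -0.07 to 0.59 and Rbp2 from -0.55 to 0.40, so that these genes kept no fixed sign. No ratio of 2-fold or more changed sign in mEC-like cells. The members highest in mEC-like cells numbered 8 to 9 in WT and 7 to 9 in KO.

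The median log2 ratio of the members in mEC-like cells was 0.15 with a 15% mitochondrial limit, 0.25 with at least 500 genes, 0.37 without genes above 1% in the denominator, -0.0133 with each matrix clustered by itself, 0.50 after thinning, 0.59 with mean UMIs per cell and -0.0663 with log-normalised values. It was 0.14 without the Slc34a2-led cluster and 0.46 without the Fabp6-led one. In imEC-like cells mean UMIs per cell, which carry the difference in depth, gave 5 members at least 2-fold higher and a median of 1.07. Subtracting the TC-like level gave -1.63 over the 4 genes left above 0, subtracting the PC-like level gave -0.50 over 8, and subtracting the CBC-like level gave -0.30 over 9. The median TC-like level as a percent of mEC-like in KO was 4.302 with the 15% limit, 3.02 with high Scrublet scores removed, 4.42 with the other denominator, 7.48 with separate clustering, 8.10 after thinning and 12.4 with mean UMIs. In WT it was 3.48 after thinning and 6.78 with mean UMIs. The cause was not tested. With 1 sample per genotype, no value could be set against a spread between animals. Apoc2 was limited by depth in every class.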
